A study of Mus musculus with 11 samples.

Results

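Transcript levels of 58 genes of the ubiquitin and proteasome system were described here, out of 7114 named genes on the arrays. The members were found by symbol alone: every gene named Psma, Psmb, Psmc or Psmd followed by a number, and every gene whose name starts with Ube2. They comprised 33 proteasome genes and 25 genes for ubiquitin-conjugating enzymes, called E2s. The 33 were 7 genes of the outer rings of the proteasome core (Psma1 to Psma7), 7 of its inner rings (Psmb1 to Psmb7) and Psmb11. With them came 4 ATPase genes of the cap (Psmc1, Psmc2, Psmc3 and Psmc5), 11 genes of its non-ATPase subunits and 3 for assembly factors or associated proteins (Psmd5, Psmd9 and Psmd10). All 58 had a value on all 11 arrays, and 22 were measured by several probes. The immunoproteasome genes Psmb8, Psmb9 and Psmb10, and Psma8, Psmc4 and Psmc6, were not analysed here.

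The proteasome degrades proteins in the cytoplasm and nucleus. Its core is a barrel of α rings, which gate the entrance, around β rings, whose inward faces cut the protein chain. The cap binds ubiquitin chains, removes them, and uses a ring of ATPases to unfold the substrate and thread it into the core. A protein is marked for this fate by a cascade: an E1 enzyme activates ubiquitin, an E2 carries it, and an E3 ligase brings the E2 to the substrate. Several E2s act at fixed points of the cell cycle, at damaged DNA or at the membrane of the endoplasmic reticulum, while others carry relatives of ubiquitin.

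The samples were the mouse lines NRAS_MEL, HRAS_MEL, D6_MEL, VA_MEF and 3T3, a sample called VA_475 whose cell type the labels do not give, a sample labelled Melan A, and 4 samples labelled Heart, Kidney, Liver and Lung. MEL was read as melanocyte from the title of the series, which concerns RAS isoforms in these pigment cells, and MEF and 3T3 as fibroblasts. The descriptions give NRAS_MEL the code of D6_MEL with Nras added, and HRAS_MEL another code. The labels used here give no strain, sex, age, culture condition or promoter for a RAS gene, and do not say how many clones or animals stand behind a sample. Each sample had 1 array, on which its own RNA, labelled with Cy3, was set against a mouse embryo reference labelled with Cy5. Every value below is a log2 ratio of own RNA over that reference, relative to the median probe of the array, so a level of 0 means a share of the RNA near that in the embryo reference. The direction of the deposited ratio is not stated; it was taken as reference over own RNA from organ marker genes, and the sign was turned. That direction is likely, not given: the titles name the sample first and the reference after it, and if the table followed that order every sign below would turn. The lowest correlation between any pair of arrays over all genes was 0.108.

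Marker genes went against several labels. The liver list (3 of 18 genes measured, among them Alb) was highest on the array labelled Lung, with a median of 2.54. The lung list (2 of 13) was highest on the array labelled Liver, at 5.31, and the heart list (2 of 17) on the array labelled Melan A, at 3.77. The kidney list (4 of 20) was highest on Kidney, at 4.08. The array labelled Heart was the closest to D6_MEL of the pairs compared here, with 2.09% of 7076 genes at least 2-fold apart. Mlph, which links pigment granules to their motor, stood at 2.94 on the array labelled Heart, 3.18 in D6_MEL and 3.06 on the array labelled VA_MEF, against -0.06 on the array labelled Melan A. The fibroblast list (13 of 18) was highest in 3T3, at -0.0042, and lowest on the array labelled VA_MEF, at -2.49. The melanocyte list (6 of 20, without Mitf, Tyr, Tyrp1, Dct, Pmel or Mlana) was highest on the array labelled VA_MEF, at 0.39, against -0.52 in NRAS_MEL, -0.90 in HRAS_MEL and -0.41 in D6_MEL. The next highest median of the melanocyte list was 0.29, on the array labelled Liver, so this list did not set the MEL-labelled lines apart. Rab38, which serves pigment granule formation, stood at 3.40 on the array labelled VA_MEF, against 0.04 in NRAS_MEL, -0.99 in HRAS_MEL and 0.06 in D6_MEL. For the array labelled VA_MEF, the fibroblast list and Mlph thus go against the reading of MEF as fibroblast. These arrays are therefore called by their labels ("the array labelled Liver"), and the arrays labelled Heart and Melan A were left out of the comparison of 5 lines (NRAS_MEL, HRAS_MEL, D6_MEL, VA_MEF and 3T3) with 3 organs (Kidney, Liver and Lung).

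The members varied less across the arrays than most genes. The range of a gene, its highest minus its lowest log2 level over the 11 arrays, had a median of 1.12 for the 33 proteasome genes and 1.09 for the 25 E2 genes, against 1.54 for the 7035 genes with a value on every array. A range of at least 4-fold was found for 6 of the 58 members (10.3%), against 33.1% of all genes, and a range under 2-fold for 21 (36.2%), against 20.9%. The 6 were Ube2o, Ube2c, Psmd10, Ube2e2, Psmd5 and Ube2q1. The median SD between probes of the same gene was 0.18 over the 22 members with several probes and 0.27 over 1810 genes, but it reached 0.68 for Psma7 and 0.52 for Ube2n. This description of spread was not tested.

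**Figure D1:**
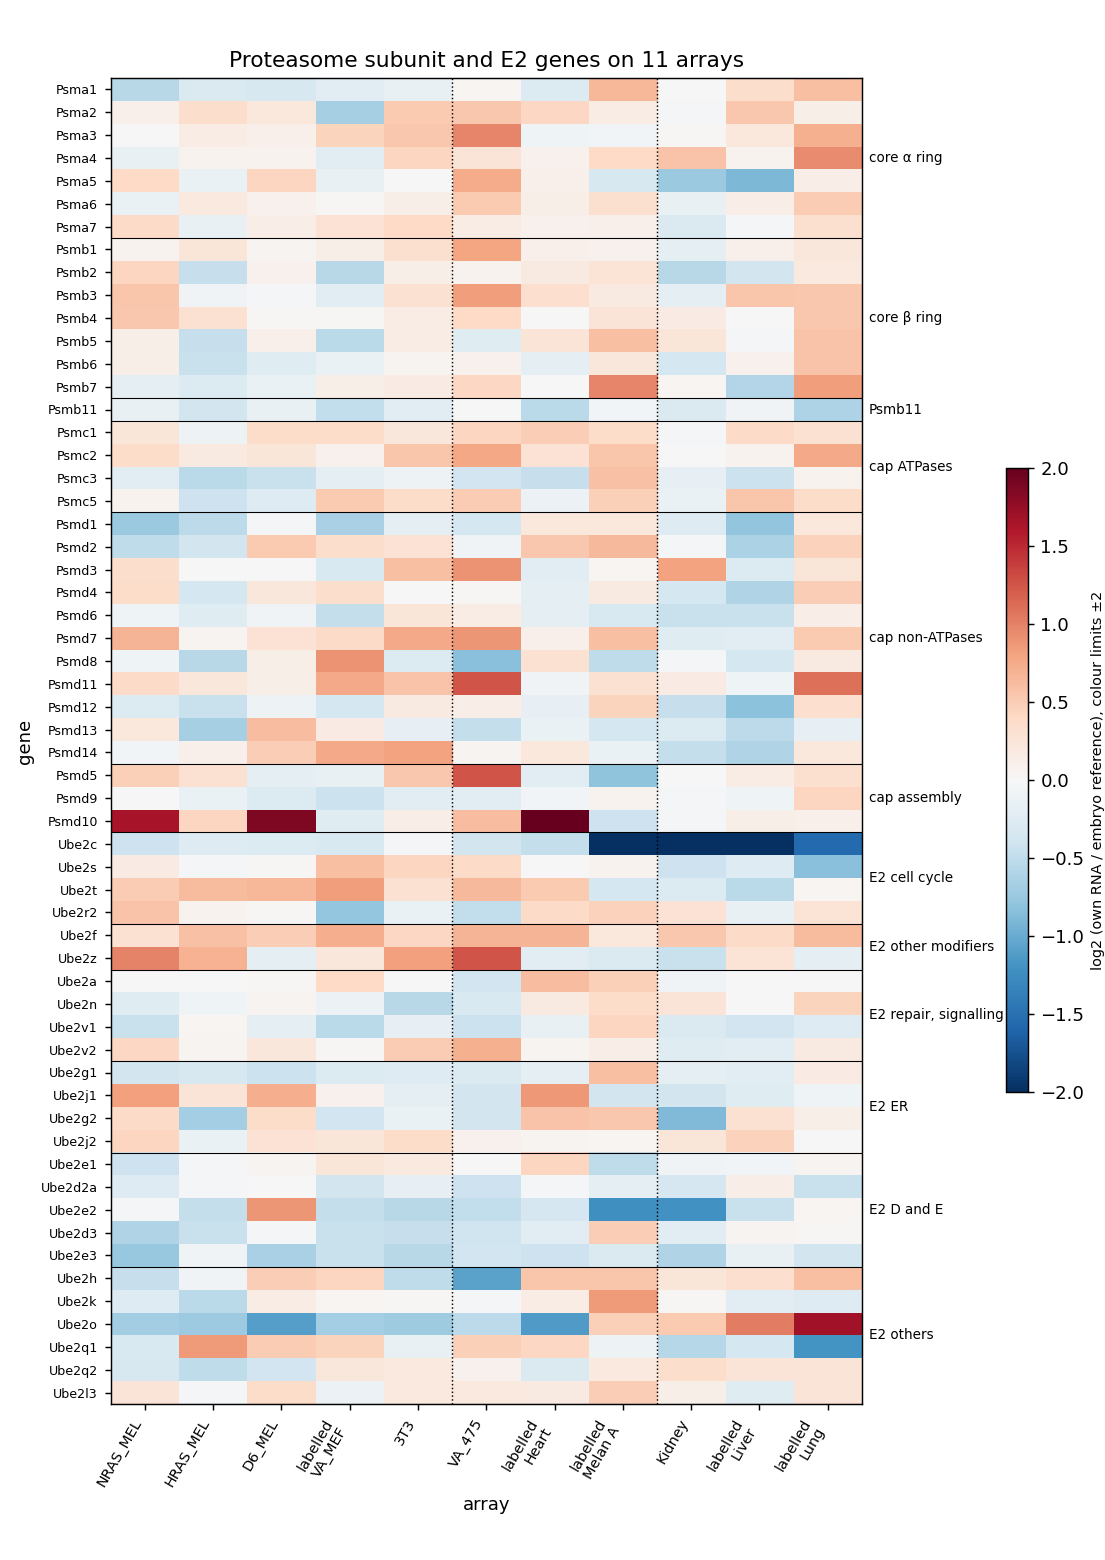
Heat map of the log2 ratio of own RNA over embryo reference for the 58 members (rows, by role) on the 11 arrays (columns; dotted lines part the 5 lines, the 3 arrays outside the comparison and the 3 organs). Colours end at log2 levels of -2 and 2; most rows are pale, while Ube2c is blue on Kidney and on the arrays labelled Liver, Lung and Melan A, Ube2o is pale to deep red there, and Psmd10 is red on D6_MEL, NRAS_MEL and the array labelled Heart.

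Between the 5 lines and the 3 organs, 3 of the 25 E2 genes changed and none of the 33 proteasome genes passed the test. Ube2c and Ube2t were higher in the lines and Ube2o was lower, each measured by 1 probe. The test was limma across all genes with Benjamini-Hochberg adjustment and a threshold of 0.05, and it called 472 of 7067 genes (6.68%), of which 205 were higher in the lines (2.9%) and 267 lower (3.78%). The E2 share lay above that background and the proteasome share below it, on counts too small to say more. Without adjustment, 2 proteasome genes (Psmd14 and Psma1) and 5 E2 genes had a p under 0.05, against 27.4% of all genes. Lines and organs did not overlap for Ube2c, Ube2t, Ube2o, Ube2s, Psma1, Ube2q1, Ube2q2 and Ube2g1. Among these were genes far from the threshold, Ube2q2 (limma adjusted p = 0.244) and Ube2g1 (limma adjusted p = 0.382). The share of all genes without overlap was not counted. The median change of the proteasome genes, lines minus organs, was 0.01, that of the E2 genes 0.05 and that of all genes -0.03. Lines and organs stood in for replicates, so these p-values measure the spread between lines and between organs. NRAS_MEL and D6_MEL share a description code but entered the fit as independent lines, so the spread between lines may be understated. Taken by label with the arrays labelled Heart and Melan A added, the comparison of 10 arrays called 0 of 7087 genes in limma (0%), and 8.28% had an unadjusted p under 0.05.

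**Figure D2:**
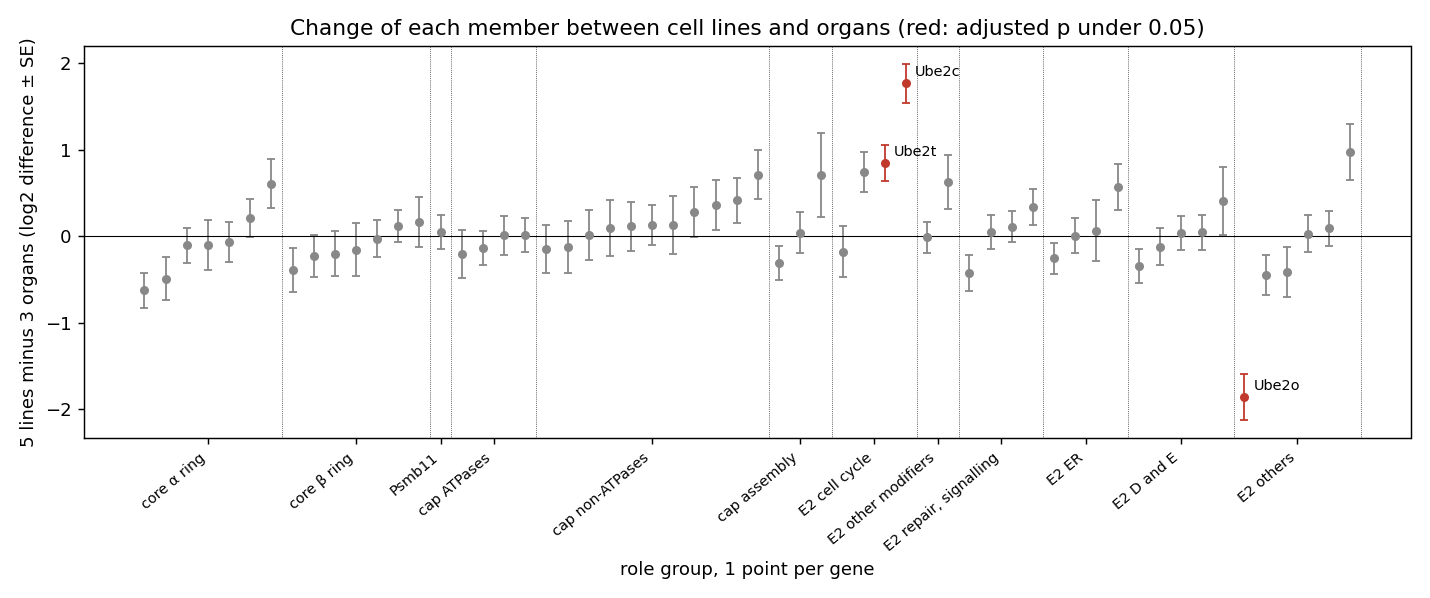
Log2 difference of each member, 5 lines minus 3 organs, with its standard error from limma, by role group. Ube2c (1.77) and Ube2t (0.84) lie above 0 and Ube2o (-1.86) below, in red for an adjusted p under 0.05; the 33 proteasome genes lie between -0.62 and 0.71, in grey.

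The median level of the proteasome genes set some arrays apart. Over the 32 proteasome genes without Psmb11, it was 0.11 in NRAS_MEL, -0.13 in HRAS_MEL, 0.08 in D6_MEL, -0.05 on the array labelled VA_MEF and 0.21 in 3T3, against -0.09 in Kidney, -0.06 on the array labelled Liver and 0.35 on the array labelled Lung. It was 0.33 in VA_475, 0.09 on the array labelled Heart and 0.22 on the array labelled Melan A. The line and organ medians thus overlapped, and the array labelled Lung lay above every line. Of these 32 genes, 31 lay above the reference on the array labelled Lung and 9 in Kidney. For the 25 E2 genes, 16 lay above it on the array labelled Lung and 9 in Kidney. The median level of all genes was -0.06 on the array labelled Lung and -0.06 in Kidney. The share of all genes above the reference was not counted. A ratio to the embryo reference on bulk RNA cannot tell fewer cells of a type from less RNA per cell.

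**Figure D3:**
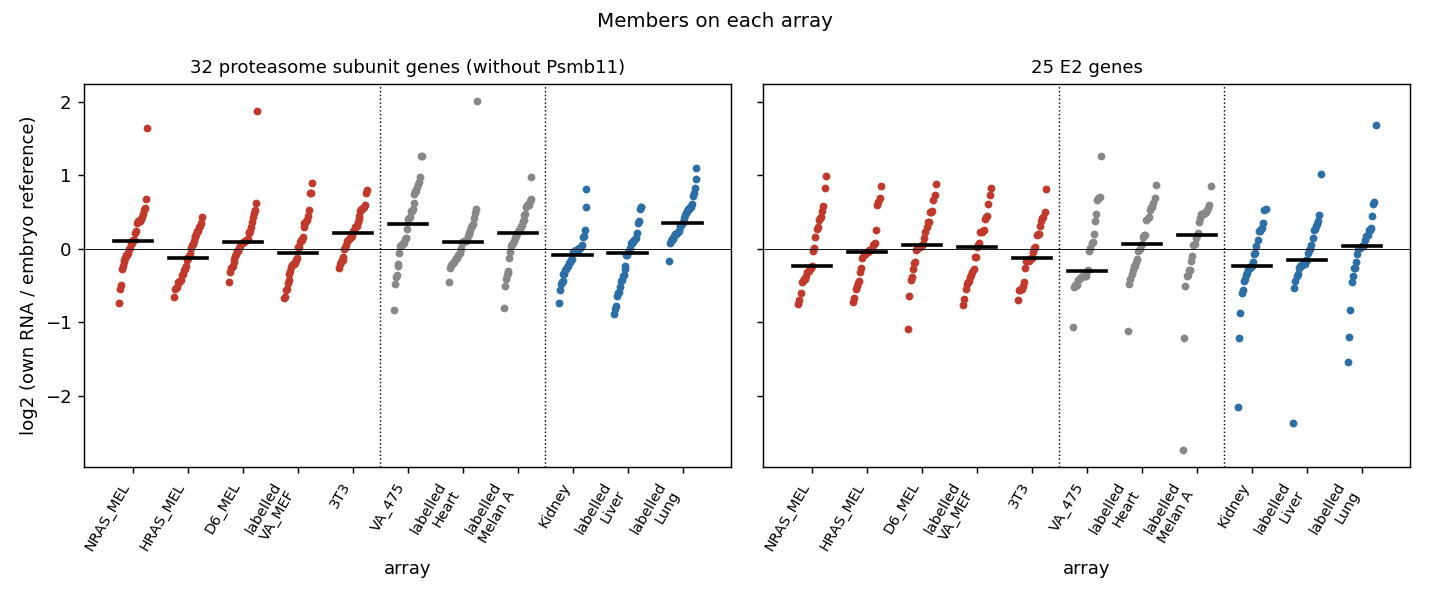
Each point is 1 gene and each black bar the median of its set on that array, for 32 proteasome genes (left panel) and 25 E2 genes (right panel), as log2 of own RNA over embryo reference; red marks the 5 lines, grey the arrays outside the comparison and blue the 3 organs. The proteasome medians run from -0.13 in HRAS_MEL to 0.35 on the array labelled Lung, and the lowest E2 points are Ube2c.

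Proteasome genes also moved together from array to array more than E2 genes did. Over all pairs of the 32 genes, the median Pearson correlation across the 11 arrays was 0.29, and 77.2% of pairs were above 0, while the median was -0.00061 for pairs of E2 genes and -0.0023 for pairs of all genes. It was 0.47 within the β ring, 0.41 within the ATPases, 0.39 within the non-ATPase subunits and 0.23 within the α ring. The gene most like the median of the other 31 was Psmc2, an ATPase of the cap, with a correlation of 0.95, followed by Psmd12 at 0.84, and the least alike were Psmd8 at -0.36, Psmd13 at -0.04 and Psmd10 at -0.01. The 11 points share the reference RNA and the centring of each array, and no test was made of these values.

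The α ring closes the barrel at each end, and its subunits do not cut protein. Of its 7 genes, 0 passed the test between lines and organs, and 1 had an unadjusted p under 0.05. Psma1 stood at -0.55 in NRAS_MEL, -0.29 in HRAS_MEL, -0.32 in D6_MEL, -0.21 on the array labelled VA_MEF and -0.15 in 3T3, against -0.0033 in Kidney, 0.35 on the array labelled Liver and 0.60 on the array labelled Lung. VA_475 gave 0.04, and the arrays labelled Heart and Melan A gave -0.27 and 0.67. The 5 lines lay below the 3 organs without overlap, with a difference of -0.62 ± 0.20 (SE; limma adjusted p = 0.0894), which missed the threshold. Psma5 had the widest range of the ring: it stood at 0.40 in NRAS_MEL, -0.13 in HRAS_MEL, 0.43 in D6_MEL, -0.15 on the array labelled VA_MEF and 0.0011 in 3T3, against -0.74 in Kidney, -0.89 on the array labelled Liver and 0.13 on the array labelled Lung. Outside the comparison, Psma5 was at 0.74 in VA_475 and at 0.10 and -0.33 on the arrays labelled Heart and Melan A. Its difference of 0.61 ± 0.28 (SE) also missed the threshold (limma adjusted p = 0.202), and the array labelled Lung lay among the lines. Psma6 had the narrowest range of the ring, at -0.13 in NRAS_MEL, 0.19 in HRAS_MEL, 0.09 in D6_MEL, 0.02 on the array labelled VA_MEF and 0.11 in 3T3, against -0.15 in Kidney, 0.13 on the array labelled Liver and 0.51 on the array labelled Lung. Psma6 measured 0.52 in VA_475, 0.12 on the array labelled Heart and 0.32 on the array labelled Melan A. Its lines and organs overlapped. The remaining α genes (Psma2, Psma3, Psma4 and Psma7) differed between lines and organs by -0.49 to 0.22, all short of the threshold.

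The β ring holds the cutting sites, which lie on Psmb5 (after hydrophobic residues), Psmb6 (after acidic ones) and Psmb7 (after basic ones). None of its 7 genes had an unadjusted p under 0.05 in limma, and the differences lay between -0.39 and 0.16. Psmb5, whose product is the main target of proteasome inhibitor drugs, stood at 0.12 in NRAS_MEL, -0.46 in HRAS_MEL, 0.10 in D6_MEL, -0.55 on the array labelled VA_MEF and 0.15 in 3T3, against 0.25 in Kidney, -0.03 on the array labelled Liver and 0.56 on the array labelled Lung. Psmb5 read -0.24 in VA_475 and 0.26 and 0.59 on the arrays labelled Heart and Melan A. HRAS_MEL and the array labelled VA_MEF were the lowest of the 11. Psmb7 had the widest range of the ring, at -0.18 in NRAS_MEL, -0.27 in HRAS_MEL, -0.14 in D6_MEL, 0.11 on the array labelled VA_MEF and 0.17 in 3T3, against 0.05 in Kidney, -0.59 on the array labelled Liver and 0.83 on the array labelled Lung. It read 0.41 in VA_475, 0.01 on the array labelled Heart and 0.97 on the array labelled Melan A. The 3 organs alone spanned more than the 5 lines, from the array labelled Liver to the array labelled Lung. Psmb4, a structural subunit with no cutting site, had the narrowest range of all 33 proteasome genes, at 0.53 in NRAS_MEL, 0.30 in HRAS_MEL, 0.03 in D6_MEL, 0.02 on the array labelled VA_MEF and 0.15 in 3T3, against 0.16 in Kidney, 0.0031 on the array labelled Liver and 0.54 on the array labelled Lung. VA_475 gave 0.40, and the arrays labelled Heart and Melan A gave -0.0028 and 0.25. D6_MEL, the array labelled VA_MEF and the arrays labelled Liver and Heart were near the reference, and no array was clearly below it.

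Psmb11 encodes the cutting subunit of the thymoproteasome, a form of the core known from epithelial cells of the thymus, and was the 1 alternative catalytic subunit measured. It stood at -0.15 in NRAS_MEL, -0.36 in HRAS_MEL, -0.15 in D6_MEL, -0.49 on the array labelled VA_MEF and -0.21 in 3T3, against -0.29 in Kidney, -0.07 on the array labelled Liver and -0.62 on the array labelled Lung. Outside the comparison, Psmb11 was at 0.01 in VA_475 and at -0.54 and -0.05 on the arrays labelled Heart and Melan A. Lines and organs overlapped, with a difference of 0.05 ± 0.20 (SE; limma adjusted p = 0.897). Its range of 0.63 was narrow, and no array was at least 2-fold above the reference.

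The ATPase ring of the cap pulls the substrate into the core. None of its 4 measured genes had an unadjusted p under 0.05, and the differences lay between -0.21 and 0.01. Psmc3 stood at -0.23 in NRAS_MEL, -0.54 in HRAS_MEL, -0.45 in D6_MEL, -0.19 on the array labelled VA_MEF and -0.11 in 3T3, against -0.16 in Kidney, -0.43 on the array labelled Liver and 0.08 on the array labelled Lung. Psmc3 measured -0.38 in VA_475, -0.46 on the array labelled Heart and 0.59 on the array labelled Melan A. It was below the reference in all 5 lines, and the array labelled Melan A was the highest. Psmc5 stood at 0.07 in NRAS_MEL, -0.42 in HRAS_MEL, -0.26 in D6_MEL, 0.52 on the array labelled VA_MEF and 0.36 in 3T3, against -0.14 in Kidney, 0.56 on the array labelled Liver and 0.37 on the array labelled Lung. Psmc5 read 0.51 in VA_475 and -0.12 and 0.47 on the arrays labelled Heart and Melan A. Its 3 probes disagreed on the array labelled Liver, where they read 2.16, -0.18 and -0.28. Psmc1 had the narrowest range, at 0.24 in NRAS_MEL, -0.09 in HRAS_MEL, 0.36 in D6_MEL, 0.37 on the array labelled VA_MEF and 0.23 in 3T3, against -0.05 in Kidney, 0.38 on the array labelled Liver and 0.30 on the array labelled Lung. It read 0.43 in VA_475, 0.48 on the array labelled Heart and 0.37 on the array labelled Melan A. Psmc2, the gene most like the median of the other subunits, ran from 0.01 in Kidney to 0.76 on the array labelled Lung and 0.78 in VA_475.

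The non-ATPase subunits of the cap form its lid and its docking sites for ubiquitin. Of the 11, 0 passed the test, 9 had a difference above 0 and 1 had an unadjusted p under 0.05. Psmd14, the enzyme that cuts the ubiquitin chain off the substrate, stood at -0.06 in NRAS_MEL, 0.10 in HRAS_MEL, 0.49 in D6_MEL, 0.76 on the array labelled VA_MEF and 0.80 in 3T3, against -0.48 in Kidney, -0.60 on the array labelled Liver and 0.21 on the array labelled Lung. VA_475 gave 0.05, and the arrays labelled Heart and Melan A gave 0.20 and -0.13. NRAS_MEL and HRAS_MEL lay below the array labelled Lung, and the difference of 0.71 ± 0.29 (SE) missed the threshold (limma adjusted p = 0.148). Psmd8, a lid subunit, had the widest range of the group, at -0.08 in NRAS_MEL, -0.55 in HRAS_MEL, 0.12 in D6_MEL, 0.90 on the array labelled VA_MEF and -0.27 in 3T3, against -0.04 in Kidney, -0.35 on the array labelled Liver and 0.17 on the array labelled Lung. Outside the comparison, Psmd8 was at -0.84 in VA_475 and at 0.31 and -0.51 on the arrays labelled Heart and Melan A. It ran from VA_475, the lowest, to the array labelled VA_MEF, the highest, and followed the other subunits least. Psmd6 had the narrowest range, at -0.09 in NRAS_MEL, -0.24 in HRAS_MEL, -0.08 in D6_MEL, -0.47 on the array labelled VA_MEF and 0.25 in 3T3, against -0.44 in Kidney, -0.44 on the array labelled Liver and 0.13 on the array labelled Lung. Psmd6 measured 0.15 in VA_475, -0.18 on the array labelled Heart and -0.31 on the array labelled Melan A. Psmd4, which docks ubiquitin chains, lay between -0.60 on the array labelled Liver and 0.49 on the array labelled Lung.

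Psmd2 and Psmd13 are given as well because they were at least 2-fold apart between single arrays. Psmd2, a large scaffold subunit that docks ubiquitin chains, stood at -0.50 in NRAS_MEL, -0.36 in HRAS_MEL, 0.53 in D6_MEL, 0.35 on the array labelled VA_MEF and 0.29 in 3T3, against -0.02 in Kidney, -0.64 on the array labelled Liver and 0.46 on the array labelled Lung. Psmd2 read -0.06 in VA_475 and 0.53 and 0.65 on the arrays labelled Heart and Melan A. NRAS_MEL and HRAS_MEL were the lowest of the lines. Psmd13, a lid subunit, stood at 0.21 in NRAS_MEL, -0.66 in HRAS_MEL, 0.62 in D6_MEL, 0.16 on the array labelled VA_MEF and -0.16 in 3T3, against -0.28 in Kidney, -0.52 on the array labelled Liver and -0.17 on the array labelled Lung. It read -0.48 in VA_475, -0.13 on the array labelled Heart and -0.36 on the array labelled Melan A. D6_MEL was the highest of the 11 arrays and HRAS_MEL the lowest.

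Psmd5, Psmd9 and Psmd10 encode chaperones that help build the base of the cap and leave before it is complete. Psmd10, also known as gankyrin, binds the retinoblastoma protein and is known as an oncoprotein in liver. It stood at 1.64 in NRAS_MEL, 0.43 in HRAS_MEL, 1.87 in D6_MEL, -0.25 on the array labelled VA_MEF and 0.14 in 3T3, against -0.02 in Kidney, 0.11 on the array labelled Liver and 0.10 on the array labelled Lung. VA_475 gave 0.62, and the arrays labelled Heart and Melan A gave 2.01 and -0.42. D6_MEL, NRAS_MEL and the array labelled Heart, which was close to D6_MEL over all genes, were high, and no other array exceeded 0.62. Both of its probes gave this pattern, at 1.56 and 1.72 in NRAS_MEL, 0.39 and 0.47 in HRAS_MEL, and 1.73 and 2.01 in D6_MEL. The lines themselves thus spanned most of the range, and lines minus organs came to 0.70 ± 0.48 (SE; limma adjusted p = 0.386). Psmd5 stood at 0.47 in NRAS_MEL, 0.31 in HRAS_MEL, -0.18 in D6_MEL, -0.15 on the array labelled VA_MEF and 0.54 in 3T3, against 0.01 in Kidney, 0.15 on the array labelled Liver and 0.32 on the array labelled Lung. Outside the comparison, Psmd5 was at 1.26 in VA_475 and at -0.23 and -0.81 on the arrays labelled Heart and Melan A. VA_475 was the highest and the array labelled Melan A the lowest. Psmd9 had the narrowest range of the 3, at 0.01 in NRAS_MEL, -0.13 in HRAS_MEL, -0.27 in D6_MEL, -0.43 on the array labelled VA_MEF and -0.21 in 3T3, against -0.02 in Kidney, -0.09 on the array labelled Liver and 0.42 on the array labelled Lung. Psmd9 measured -0.21 in VA_475, -0.06 on the array labelled Heart and 0.07 on the array labelled Melan A.

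Of the 3 members that changed between lines and organs, 2 were Ube2c and Ube2t, which are grouped here with Ube2s and Ube2r2; Ube2t lost its call whenever any 1 of the 8 arrays was left out. Ube2c starts ubiquitin chains for the anaphase-promoting complex, the E3 that ends mitosis, and Ube2s extends those chains. Ube2t acts in the Fanconi anaemia pathway of DNA crosslink repair, and Ube2r2 works with cullin E3s. Ube2c stood at -0.41 in NRAS_MEL, -0.26 in HRAS_MEL, -0.28 in D6_MEL, -0.31 on the array labelled VA_MEF and -0.04 in 3T3, against -2.16 in Kidney, -2.37 on the array labelled Liver and -1.55 on the array labelled Lung. Ube2c read -0.37 in VA_475 and -0.48 and -2.74 on the arrays labelled Heart and Melan A. All 5 lines lay near the embryo reference and all 3 organs far below it, and the array labelled Melan A, with heart markers, lay with the organs, while the array labelled Heart lay with the lines. The means were -0.26 ± 0.13 in the lines and -2.03 ± 0.43 in the organs (SD, n = 5 and 3), a difference of 1.77 ± 0.22 (SE; limma adjusted p = 0.00448). Leaving out any 1 of the 8 arrays kept the call, with differences of 1.59 to 2.01; taken by label with the arrays labelled Heart and Melan A, the difference was 0.97 (limma adjusted p = 0.613).

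Ube2t stood at 0.51 in NRAS_MEL, 0.64 in HRAS_MEL, 0.66 in D6_MEL, 0.83 on the array labelled VA_MEF and 0.31 in 3T3, against -0.27 in Kidney, -0.54 on the array labelled Liver and 0.04 on the array labelled Lung. It read 0.66 in VA_475, 0.53 on the array labelled Heart and -0.36 on the array labelled Melan A. The lines lay above the organs without overlap, at 0.59 ± 0.19 in the lines and -0.26 ± 0.29 in the organs (SD, n = 5 and 3), a difference of 0.84 ± 0.21 (SE; limma adjusted p = 0.0461). The call was lost when any 1 of the 8 arrays was left out, with adjusted p of 0.0560 to 0.130 and differences of 0.70 to 0.99, and by label (0.49, limma adjusted p = 0.613). Ube2s stood at 0.16 in NRAS_MEL, -0.04 in HRAS_MEL, 0.03 in D6_MEL, 0.61 on the array labelled VA_MEF and 0.44 in 3T3, against -0.42 in Kidney, -0.26 on the array labelled Liver and -0.83 on the array labelled Lung. VA_475 gave 0.38, and the arrays labelled Heart and Melan A gave 0.00098 and 0.06. The lines again lay above the organs without overlap, but the difference of 0.74 ± 0.23 (SE) missed the threshold (limma adjusted p = 0.0811), and its probes disagreed: with 1 probe it was 0.17. Ube2r2 stood at 0.58 in NRAS_MEL, 0.07 in HRAS_MEL, 0.03 in D6_MEL, -0.77 on the array labelled VA_MEF and -0.13 in 3T3, against 0.28 in Kidney, -0.15 on the array labelled Liver and 0.28 on the array labelled Lung. Outside the comparison, Ube2r2 was at -0.50 in VA_475 and at 0.39 and 0.47 on the arrays labelled Heart and Melan A. Its lines and organs overlapped, with NRAS_MEL the highest and the array labelled VA_MEF the lowest.

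**Figure D4:**
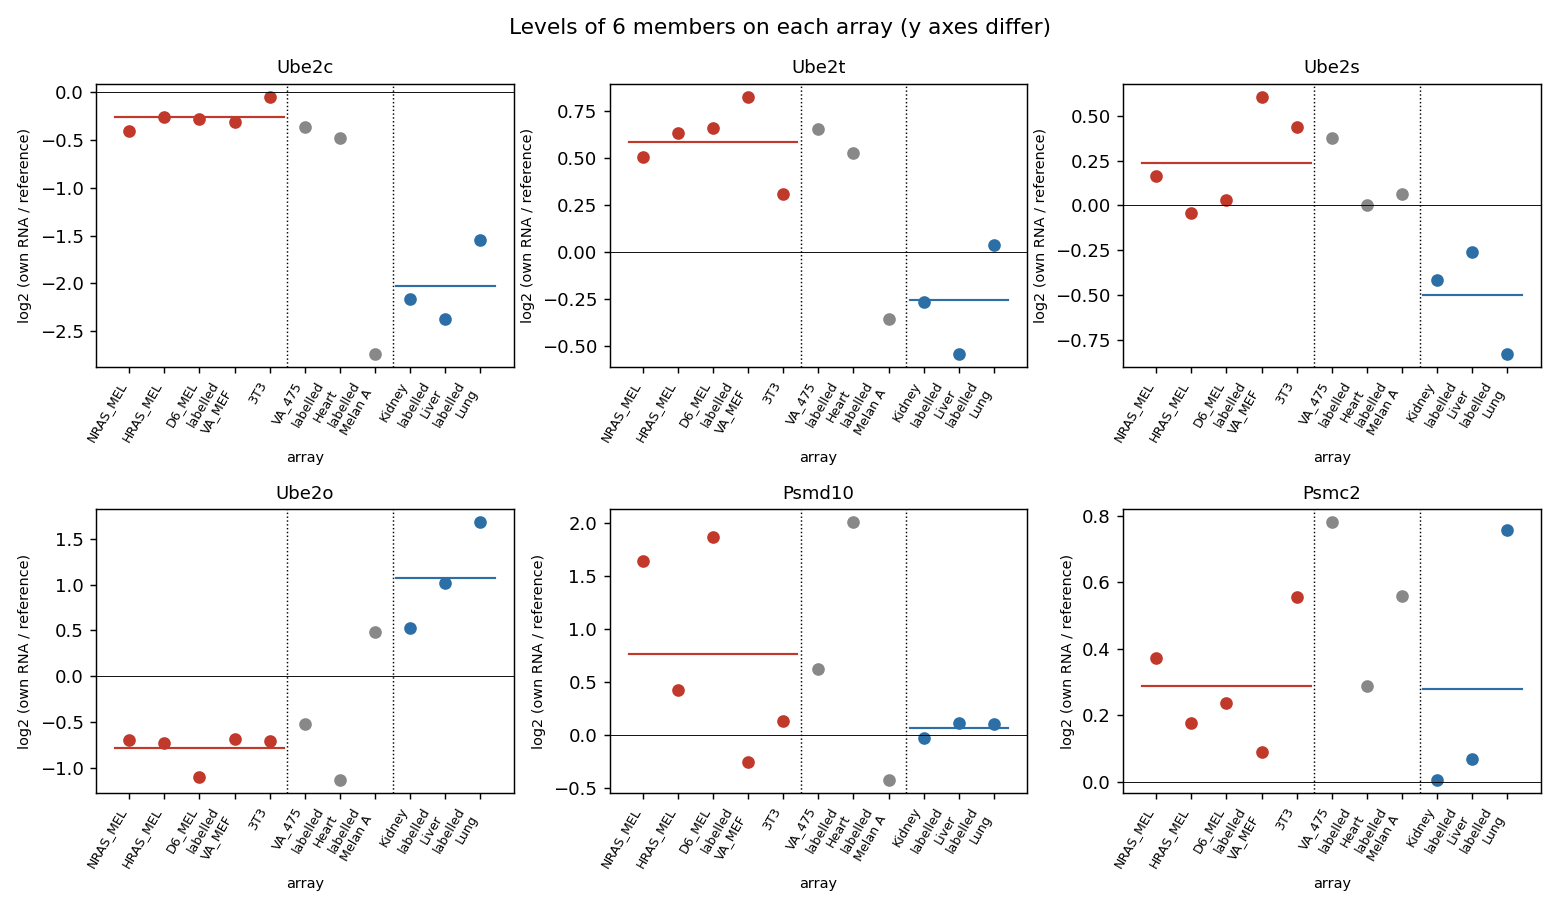
Log2 ratio of own RNA over embryo reference for 6 members on each of the 11 arrays, with separate vertical axes; red points are the 5 lines, blue the 3 organs, grey the arrays outside the comparison, and the horizontal coloured lines are the means of lines and organs. For Ube2c, Ube2t and Ube2s every line lies above every organ, for Ube2o below. Psmd10 parts the lines themselves, from 1.87 in D6_MEL to -0.25 on the array labelled VA_MEF. Psmc2 is the gene with the highest correlation with the median of the other proteasome subunits (0.95).

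Genes of dividing cells differed the same way. Of 23 proliferation genes, 15 were higher in the lines by limma and 0 lower, with a median difference of 1.38; among them Plk1 differed by 2.48, Top2a by 2.26, Mcm2 by 2.10 and Birc5 by 2.02. The median level of that list was -0.46 to 0.22 on the 5 lines, against -1.84 to -1.36 on the 3 organs, and it was -1.85 on the array labelled Melan A and -0.15 on the array labelled Heart. The part of cell division in the values of Ube2c and Ube2t was not tested.

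The promoters of these cell-cycle E2s are shown because genes of mitosis often carry CCAAT boxes and a CHR element (cell cycle genes homology region) near their start. The 250 bases before the start are given 5′ to 3′ on the strand of the gene, from RefSeq on GRCm38.p6, with CCAAT or its complement ATTGG and the CHR letters TTTGAA or their complement TTCAAA in capitals.
Ube2c, chr2:164769679-164769928 on the plus strand: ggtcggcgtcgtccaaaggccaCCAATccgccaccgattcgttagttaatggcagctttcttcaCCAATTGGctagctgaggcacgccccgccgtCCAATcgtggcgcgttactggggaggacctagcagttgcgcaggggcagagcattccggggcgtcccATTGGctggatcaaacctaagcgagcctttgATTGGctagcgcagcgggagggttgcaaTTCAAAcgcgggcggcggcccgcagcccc
Ube2t, chr1:134962315-134962564 on the plus strand: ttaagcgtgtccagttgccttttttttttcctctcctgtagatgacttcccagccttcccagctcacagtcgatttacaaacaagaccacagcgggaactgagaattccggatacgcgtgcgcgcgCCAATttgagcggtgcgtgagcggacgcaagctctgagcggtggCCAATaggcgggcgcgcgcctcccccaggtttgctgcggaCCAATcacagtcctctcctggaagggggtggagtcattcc
Ube2s, chr7:4812341-4812590 on the minus strand: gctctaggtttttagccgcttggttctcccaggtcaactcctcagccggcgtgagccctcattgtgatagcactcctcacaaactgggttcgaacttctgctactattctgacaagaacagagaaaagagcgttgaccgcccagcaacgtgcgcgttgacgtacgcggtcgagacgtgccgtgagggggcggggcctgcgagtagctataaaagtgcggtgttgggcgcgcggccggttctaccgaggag
Ube2c had 6 matches to CCAAT, counting both strands, of which a facing pair overlapped (CCAATTGG), and 1 match to the CHR letters at positions -29 to -24 from the start. Ube2t had 3 matches to CCAAT, with first bases at -124, -80 and -40, and Ube2s had 0 matches to either motif. Over all 32851 promoter windows of this length, 33.9% held at least 1 CCAAT, 2.79% at least 3 and 0.0578% at least 6, and 16.0% held the CHR letters. Among 28 windows of E2 genes, 21.4% held a CCAAT, 10.7% at least 3 and 10.7% the CHR letters, and among 29 windows of proteasome genes, 41.4% held a CCAAT and 6.90% the CHR letters. TGANNNNGC, the core of the antioxidant element through which Nfe2l1 and Nfe2l2 act on proteasome genes, was found on either strand in 41.4% of the proteasome windows and 42.9% of the E2 windows, against 35.2% of all. A match is a description of letters. A promoter was found for 47 of the 58 members, some with several windows.

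Ube2o, a large enzyme that combines E2 and E3 activity and is known from maturing red cells, was the member that fell in the lines. It stood at -0.70 in NRAS_MEL, -0.72 in HRAS_MEL, -1.10 in D6_MEL, -0.68 on the array labelled VA_MEF and -0.71 in 3T3, against 0.53 in Kidney, 1.02 on the array labelled Liver and 1.68 on the array labelled Lung. Ube2o measured -0.52 in VA_475, -1.13 on the array labelled Heart and 0.48 on the array labelled Melan A. All 5 lines were below the reference and all 3 organs above it, and the array labelled Melan A again lay with the organs. The means were -0.78 ± 0.18 in the lines and 1.08 ± 0.58 in the organs (SD, n = 5 and 3), a difference of -1.86 ± 0.27 (SE; limma adjusted p = 0.00748). Leaving out any 1 of the 8 arrays kept the call, with differences of -2.13 to -1.56; by label it was -1.10 (limma adjusted p = 0.585), and with the 3 MEL-labelled lines alone -1.92 (limma adjusted p = 0.0518). Genes of blood cells differed as well. Of 4 red cell genes measured of 8 listed, 2 were lower in the lines by limma and 1 had a difference above 0. The median level of the 4 was -4.28 to -2.95 on the 5 lines. It was -1.76 in Kidney, -0.55 on the array labelled Liver and -2.14 on the array labelled Lung. The array labelled Lung, the highest for Ube2o, was thus the lowest of the organs for the red cell genes. Of 3 immune genes measured of 13 listed, 2 were lower, with medians of -3.19 to -1.18 on the lines, against -0.84 to 1.91 on the organs. The part of blood cells in the values of Ube2o was not tested.

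Other E2s of no named group did not pass the test. Ube2q1 stood at -0.30 in NRAS_MEL, 0.86 in HRAS_MEL, 0.51 in D6_MEL, 0.44 on the array labelled VA_MEF and -0.15 in 3T3, against -0.57 in Kidney, -0.34 on the array labelled Liver and -1.20 on the array labelled Lung. Ube2q1 read 0.47 in VA_475 and 0.41 and -0.09 on the arrays labelled Heart and Melan A. The lines lay above the organs without overlap, and the difference of 0.97 ± 0.32 (SE) missed the threshold (limma adjusted p = 0.0937). Its probes disagreed widely, at -2.20 and 1.51 on the array labelled Liver and -1.02 and 0.42 in NRAS_MEL, so its level on those arrays is uncertain. Ube2l3, which passes ubiquitin to E3s that take it over before the substrate, had the narrowest range of the group. It stood at 0.26 in NRAS_MEL, -0.02 in HRAS_MEL, 0.37 in D6_MEL, -0.11 on the array labelled VA_MEF and 0.19 in 3T3, against 0.11 in Kidney, -0.24 on the array labelled Liver and 0.25 on the array labelled Lung. It read 0.20 in VA_475, 0.18 on the array labelled Heart and 0.49 on the array labelled Melan A. Ube2h, Ube2k and Ube2q2 differed by -0.45 to 0.03, short of the threshold, and VA_475 was the lowest array for Ube2h, at -1.06.

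The E2s that carry relatives of ubiquitin were Ube2f, which serves NEDD8, and Ube2z, which accepts both ubiquitin and FAT10. Ube2f lay above the reference on every array, between 0.21 on the array labelled Melan A and 0.73 on the array labelled VA_MEF, and lines minus organs came to -0.01. Ube2z stood at 0.99 in NRAS_MEL, 0.69 in HRAS_MEL, -0.20 in D6_MEL, 0.23 on the array labelled VA_MEF and 0.82 in 3T3, against -0.45 in Kidney, 0.27 on the array labelled Liver and -0.18 on the array labelled Lung. VA_475 gave 1.25, and the arrays labelled Heart and Melan A gave -0.23 and -0.29. VA_475, NRAS_MEL, 3T3 and HRAS_MEL were high and D6_MEL was low among the lines, and the difference from the organs of 0.62 ± 0.31 (SE) missed the threshold (limma adjusted p = 0.229).

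None of the 4 E2s grouped here for DNA damage and signalling chains passed the test, with differences between -0.42 and 0.34. Ube2t was not in this group but in that of Ube2c, Ube2s and Ube2r2. Ube2a, which marks the replication clamp at stalled forks, stood at 0.01 in NRAS_MEL, -0.01 in HRAS_MEL, 0.02 in D6_MEL, 0.40 on the array labelled VA_MEF and 0.01 in 3T3, against -0.06 in Kidney, -0.01 on the array labelled Liver and 0.01 on the array labelled Lung. Outside the comparison, Ube2a was at -0.38 in VA_475 and at 0.62 and 0.47 on the arrays labelled Heart and Melan A. Of the lines, the array labelled VA_MEF stood apart from the other 4, which lay close together. Ube2n, the catalytic partner of an E2 pair that builds signalling chains, stood at -0.24 in NRAS_MEL, -0.09 in HRAS_MEL, 0.06 in D6_MEL, -0.12 on the array labelled VA_MEF and -0.56 in 3T3, against 0.26 in Kidney, -0.01 on the array labelled Liver and 0.45 on the array labelled Lung. Ube2n measured -0.31 in VA_475, 0.18 on the array labelled Heart and 0.36 on the array labelled Melan A. Its 2 probes disagreed, at 1.53 and -0.63 on the array labelled Lung. Ube2v2, a partner of Ube2n without a catalytic site, stood at 0.41 in NRAS_MEL, 0.06 in HRAS_MEL, 0.23 in D6_MEL, 0.03 on the array labelled VA_MEF and 0.50 in 3T3, against -0.24 in Kidney, -0.22 on the array labelled Liver and 0.18 on the array labelled Lung. Ube2v2 read 0.70 in VA_475 and 0.05 and 0.14 on the arrays labelled Heart and Melan A. The other partner, Ube2v1, lay between -0.55 and 0.42.

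The E2s known from the disposal of misfolded proteins at the endoplasmic reticulum did not pass the test either, with 4 genes between -0.26 and 0.57. Ube2j1, anchored in that membrane, stood at 0.83 in NRAS_MEL, 0.25 in HRAS_MEL, 0.73 in D6_MEL, 0.08 on the array labelled VA_MEF and -0.17 in 3T3, against -0.36 in Kidney, -0.24 on the array labelled Liver and -0.08 on the array labelled Lung. It read -0.37 in VA_475, 0.86 on the array labelled Heart and -0.37 on the array labelled Melan A. NRAS_MEL, D6_MEL and the array labelled Heart were the high arrays, the same 3 that were high for Psmd10. Ube2g2 stood at 0.39 in NRAS_MEL, -0.67 in HRAS_MEL, 0.37 in D6_MEL, -0.39 on the array labelled VA_MEF and -0.13 in 3T3, against -0.88 in Kidney, 0.31 on the array labelled Liver and 0.11 on the array labelled Lung. VA_475 gave -0.37, and the arrays labelled Heart and Melan A gave 0.57 and 0.53. HRAS_MEL was the lowest line, and Kidney the lowest array. Ube2j2 had the narrowest range of the group, at 0.43 in NRAS_MEL, -0.13 in HRAS_MEL, 0.29 in D6_MEL, 0.25 on the array labelled VA_MEF and 0.37 in 3T3, against 0.25 in Kidney, 0.46 on the array labelled Liver and 0.00095 on the array labelled Lung. Outside the comparison, Ube2j2 was at 0.09 in VA_475 and at 0.06 and 0.04 on the arrays labelled Heart and Melan A. The narrow range of Ube2j2 is that of the mean of 2 probes, which disagreed. They read -0.39 and 0.88 in Kidney, and -0.03 and 0.94 on the array labelled Liver. The SD between them had a median of 0.45 and reached 1.23, in HRAS_MEL, so the levels and range of Ube2j2 are uncertain. 

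The D and E families are E2s that serve many E3s, and none of their 5 genes passed the test, with differences between -0.34 and 0.41. Ube2e2 stood at -0.03 in NRAS_MEL, -0.47 in HRAS_MEL, 0.88 in D6_MEL, -0.48 on the array labelled VA_MEF and -0.56 in 3T3, against -1.22 in Kidney, -0.44 on the array labelled Liver and 0.04 on the array labelled Lung. Ube2e2 measured -0.49 in VA_475, -0.34 on the array labelled Heart and -1.22 on the array labelled Melan A. D6_MEL alone lay clearly above the reference. Ube2d3 stood at -0.60 in NRAS_MEL, -0.45 in HRAS_MEL, -0.02 in D6_MEL, -0.45 on the array labelled VA_MEF and -0.46 in 3T3, against -0.23 in Kidney, 0.05 on the array labelled Liver and 0.02 on the array labelled Lung. Ube2d3 read -0.40 in VA_475 and -0.23 and 0.49 on the arrays labelled Heart and Melan A. D6_MEL was again the highest line by the mean of the 3 probes. By the first probe of Ube2d3, D6_MEL at -0.07 lay below NRAS_MEL at 0.16 and HRAS_MEL at -0.05. Ube2d2a had the narrowest range, at -0.26 in NRAS_MEL, -0.04 in HRAS_MEL, -0.01 in D6_MEL, -0.36 on the array labelled VA_MEF and -0.17 in 3T3, against -0.33 in Kidney, 0.14 on the array labelled Liver and -0.45 on the array labelled Lung. It read -0.41 in VA_475, -0.04 on the array labelled Heart and -0.17 on the array labelled Melan A. Ube2e3 lay below the reference on every array, between -0.75 and -0.07.

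NRAS_MEL and D6_MEL share a description code, so their arrays bear on the addition of Nras, with 1 array each and no replicate check. Of the 58 members, Ube2z was at least 2-fold higher in NRAS_MEL and Psmd2 at least 2-fold lower. Over all genes, 485 of 7069 were that far apart (6.86%), with 174 higher (2.46%) and 311 lower (4.4%), against 2 of 58 members (3.45%). The members' share was 6.9% under quantile normalization and with equal median absolute deviations, against 8.66% and 9.11% of all genes, and 10.3% if the values are natural logarithms, against 17.2%. Ube2z stood at 0.99 in NRAS_MEL and -0.20 in D6_MEL, a difference of 1.19. Psmd2 stood at -0.50 in NRAS_MEL and 0.53 in D6_MEL, a difference of -1.03; its 3 probes gave -0.53, -1.64 and -0.91. Proteasome genes were split evenly, with 16 of 33 higher in NRAS_MEL and a median difference of -0.0034, with 1 of 7 α genes and 6 of 7 β genes higher, at medians of -0.11 and 0.35. With D6_MEL replaced by the array labelled Heart, an alternative added after the data were seen, 3 of 7 α and 4 of 7 β genes were higher, with medians of -0.24 and 0.23, and the difference between the rings was not tested. All 5 genes of the D and E families were lower in NRAS_MEL by the mean of their probes, with differences of -0.90 to -0.10. Against the array labelled Heart 4 of the 5 were lower. Probes of Ube2d2a disagreed, at -0.76, -0.02 and 0.0014 in NRAS_MEL against 0.21, -0.16 and -0.07 in D6_MEL. Those of Ube2d3 read 0.16, -0.57 and -1.40 in NRAS_MEL against -0.07, -0.23 and 0.23 in D6_MEL. Of all genes, 51.6% were higher in NRAS_MEL than in D6_MEL.

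HRAS_MEL carried lower ratios than D6_MEL for most proteasome genes. Of 33, 9 were higher in HRAS_MEL (27.3%), against 48.9% of all genes, and the median difference was -0.17, against -0.01. At least 2-fold lower were Psmd10, Ube2e2, Psmd13 and Ube2g2, and 0 members were 2-fold higher; over all genes, 788 of 7078 were that far apart (11.1%), 370 higher (5.23%) and 418 lower (5.91%). Psmd10 stood at 0.43 in HRAS_MEL and 1.87 in D6_MEL, a difference of -1.44. Ube2e2 differed by -1.35, Psmd13 by -1.28 and Ube2g2 by -1.04. The non-ATPase subunits were lower in HRAS_MEL for 10 of 11 genes, with a median of -0.39. By the mean of their probes, the 4 ATPases were all lower, with differences of -0.45 to -0.06. Probes of Psmc1 disagreed, at 0.39 and -0.58 in HRAS_MEL against 0.26 and 0.46 in D6_MEL. The first probes of Psmc2 (0.33 against 0.30) and Psmc5 (-0.93 against -0.99) were higher in HRAS_MEL, and their other probes were lower. In the α ring, 4 of 7 were higher. Whether these shifts exceed the spread between repeat arrays of a line could not be tested.

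The array labelled Heart, close to D6_MEL over all genes, was set in place of D6_MEL as an alternative chosen after the data were seen. Psmd10 (-1.58) and Ube2g2 (-1.25) were then still at least 2-fold lower in HRAS_MEL, while Ube2e2 (-0.13) and Psmd13 (-0.53) were not, among 816 of 7077 genes (11.5%). In NRAS_MEL, Ube2z (1.22) and Psmd2 (-1.04) were again that far apart, joined by Ube2h (-1.02), among 652 of 7070 genes (9.22%). The array labelled Heart itself differed from D6_MEL by at least 2-fold for 1 member, Ube2e2 (-1.22). For Ube2e2 and Psmd13 the 2-fold difference was thus seen against the D6_MEL array alone. Proteasome genes were lower in HRAS_MEL than on the array labelled Heart for 25 of 33, with a median of -0.11. By the mean of their probes, 2 of 7 α genes, 2 of 11 non-ATPase subunits and 0 of 4 ATPases were higher in HRAS_MEL.

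Between the lines named for the RAS isoforms, proteasome genes were mostly higher in NRAS_MEL than in HRAS_MEL, at 24 of 33 (72.7%), against 51.5% of all genes, with a median of 0.21. At least 2-fold higher in NRAS_MEL were Psmd10 (1.21) and Ube2g2 (1.06), and lower was Ube2q1 (-1.16), whose probes disagreed in NRAS_MEL. Over all genes, 661 of 7073 were that far apart (9.35%), 302 higher (4.27%) and 359 lower (5.08%). The β ring was higher for 6 of 7 genes, with a median of 0.56, and the α ring for 2 of 7, with a median of -0.22. By the mean of their probes, all 4 ATPases were higher, by 0.20 to 0.49. Probes of Psmc1 disagreed, at 0.21 and 0.28 in NRAS_MEL against 0.39 and -0.58 in HRAS_MEL. The first probe of Psmc2 was lower in NRAS_MEL, at 0.30 against 0.33, and its other probes were higher. The comparisons between MEL-labelled lines share arrays, so the 3 sets of values are not independent.

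**Figure D5:**
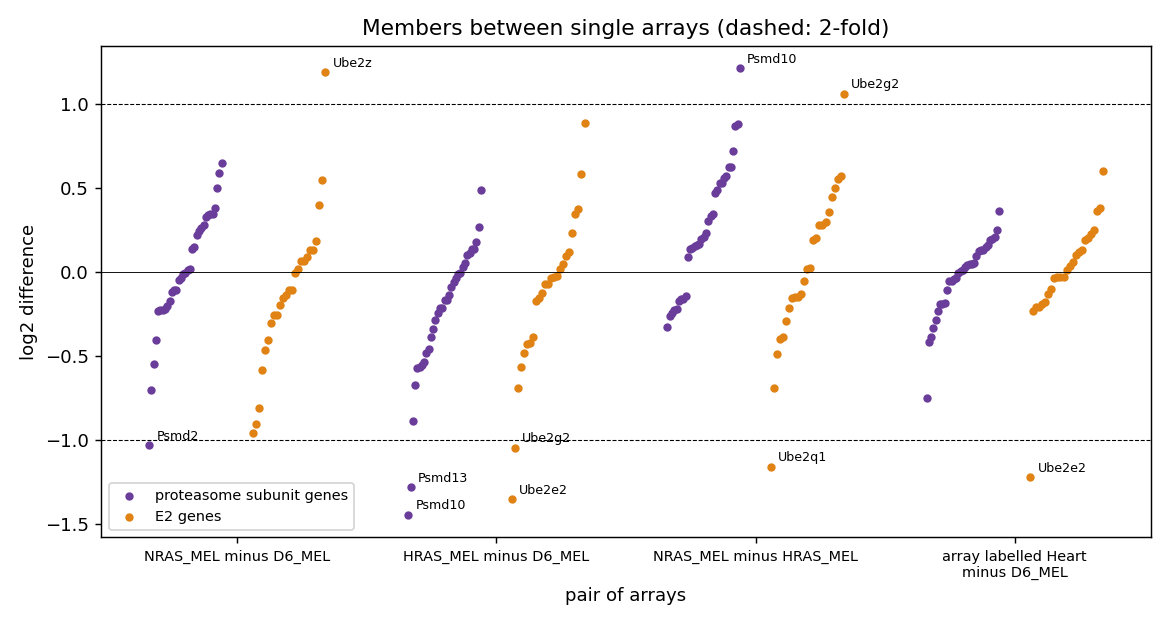
Log2 difference of each member between pairs of single arrays (33 proteasome genes in purple, 25 E2 genes in orange), ordered by value within each pair; dashed lines mark a 2-fold difference. HRAS_MEL minus D6_MEL lies mostly below 0 for proteasome genes (9 of 33 above 0) and NRAS_MEL minus HRAS_MEL mostly above (24 of 33), while the array labelled Heart differs from D6_MEL by at least 2-fold for Ube2e2 alone.

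The neighbours of these genes in the pathway were taken from lists and compared between lines and organs in the same limma fit. Of 11 activators and assembly factors, Psmg4, a chaperone of the α ring, was higher in the lines by 1.28 ± 0.22 (SE; adjusted p = 0.0146). Psme1, a subunit of the interferon-induced activator of the core, was lower, with a difference of -1.50 ± 0.38 (SE; adjusted p = 0.0491). Psmg4 averaged 0.19 ± 0.22 in the lines and -1.09 ± 0.32 in the organs, and Psme1 averaged -1.17 ± 0.49 in the lines and 0.34 ± 0.72 in the organs (SD, n = 5 and 3). Of 32 genes for E3 ligases and their scaffolds, Cdc20, the activator of the anaphase-promoting complex and also in the proliferation list, was higher by 1.86 (adjusted p = 0.0355). Smurf2, an E3 of TGF-beta signalling, was higher by 0.83 (adjusted p = 0.0460). Of 10 genes of the interferon response and antigen presentation, Igtp, Tapbp and Psme1 were lower, with differences of -2.45, -1.80 and -1.50. None of 7 genes for ubiquitin, its relatives and E1 enzymes, 22 deubiquitinases, 11 shuttle and segregase genes or 9 signalosome genes passed the test, of which 2, 4, 2 and 2 had an unadjusted p under 0.05.

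With the 3 MEL-labelled lines (NRAS_MEL, HRAS_MEL and D6_MEL) in place of the 5, limma called 93 of 7048 genes (1.32%). Among the members this left Ube2c, at 1.71 (adjusted p = 0.0389), and 0 of the 33 proteasome genes.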

How the data were processed

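The authors deposited log ratios of both channels, taken here as log2, that had been centred or nearly so before deposit by a step that is not stated: the deposited column medians lay between -0.0347 and 0.0296. The table held 15247 probes, with 15170 to 15210 values per array. The sources used here do not give its base, background correction or direction. Without signal intensities, precision is limited by how many arrays there are. Per the labels, RNA was extracted with Trizol and labelled by direct incorporation, without dye swaps.

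Arrays were median-centred and their sign turned. Of the probes, 9600 had 1 gene symbol in the platform annotation, 214 had several and 5433 were not listed; 9492 matched RefSeq (GRCm38.p6) by gene number, and 0 symbols changed. Probes of a gene were averaged, giving 7114 genes. The comparison of lines and organs used limma (version 3.58.1, R 4.3.3; lmFit, eBayes, Benjamini-Hochberg over all genes, threshold 0.05, at least 3 values per group), tested on simulated data; single arrays were compared by counting genes at least 2-fold apart. Figures used matplotlib 3.10.9.

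The members, role groups and lists were chosen with earlier results of these data known. Values on every array are given for Psmb11 and for the 2 widest-ranging and the narrowest genes of each role group of at least 3. They are also given for genes past the limma threshold (otherwise the 3 smallest p in each direction) and for members 2-fold apart between single arrays.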

Additional observations from a re-analysis of the deposited data

Results flagged for a closer look

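Among the 45 sets of 5 line values examined for a sample far from the others, 3 were set apart by a gap to the nearest line larger than Dixon's 95% critical value of 0.71 of the whole range; chance alone gives about 1 in 20. Ube2a stood at 0.40 on the array labelled VA_MEF, while the other lines lay between -0.0070 and 0.02. Ube2d3 stood at -0.022 in D6_MEL, while the others lay between -0.60 and -0.45. Its 3 probes disagreed, and the first put D6_MEL at -0.07, below NRAS_MEL at 0.16 and HRAS_MEL at -0.05. Ube2o stood at -1.10 in D6_MEL, while the others lay between -0.72 and -0.68; the lines remained below the organs with that array left out.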

How the results depend on the processing

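Between lines and organs, 0 of 33 proteasome genes were called under every alternative run: no centring, quantile normalization, equal median absolute deviation, 1 probe per gene, complete genes, the 10 arrays by label, the 3 MEL-labelled lines and each of 8 arrays left out. Of the E2 genes, 3 were called, and the same 3 without centring, under both normalizations, with 1 probe and with complete genes. Each of these 3 had 1 probe and a value on every array. Taking 1 probe per gene or complete genes could therefore change only their adjusted p, not their difference. The count was 0 by label and 1 (Ube2c) with the 3 MEL-labelled lines; it was 2 to 2 with each array left out, where Ube2t missed the threshold each time. Over single genes and alternatives, 470 values kept direction and side of the threshold, 13 lost the threshold, and 42, of 14 genes that passed no test in any fit, turned sign; between single arrays, 48 kept both and 3 were no longer 2-fold apart. The causes were not tested. Of these 14 genes, by label, Psmb4 turned to 0.040, Psmb7 to 0.036, Psmc1 to -0.030, Psmc3 to 0.086, Psmd5 to -0.030, Psmd8 to -0.089 and Ube2g2 to -0.013. With the 3 MEL-labelled lines, Psmb4 turned to 0.054, Psmc1 to -0.039, Psmd2 to -0.044, Psmd8 to -0.098, Ube2j2 to -0.038 and Ube2r2 to 0.089. With 1 probe, Psmc1 turned to -0.035 and Psmc3 to 0.13. Psmb4 was 0.021 under quantile normalization and 0.012 with equal median absolute deviation. With each array left out, Psma6 ranged from -0.26 to 0.071, Psmb11 from -0.096 to 0.18, Psmb4 from -0.14 to 0.12, Psmb7 from -0.50 to 0.21, Psmc1 from -0.11 to 0.10, Psmd2 from -0.16 to 0.39, Psmd5 from -0.044 to 0.14, Psmd8 from -0.12 to 0.24, Ube2d2a from -0.072 to 0.22, Ube2g2 from -0.30 to 0.29, Ube2j2 from -0.11 to 0.12 and Ube2l3 from -0.046 to 0.20. NRAS_MEL minus D6_MEL had 2 members 2-fold apart, 3 without centring, 4 under quantile normalization, 4 with equal median absolute deviations and 6 if the values are natural logarithms. Of all genes, 6.86%, 7.33%, 8.66%, 9.11% and 17.2% were that far apart, in that order. HRAS_MEL minus D6_MEL had 4, then 6 under quantile normalization, 5 with equal median absolute deviations, 5 with 1 probe and 6 with natural logarithms. Of all genes, 13.7%, 13.9%, 12.2% and 21.7% were that far apart under these alternatives, in that order. The members of this pair numbered 2 when the array labelled Heart replaced D6_MEL, an alternative added after seeing the data. NRAS_MEL minus HRAS_MEL had 3, then 4 with 1 probe and 6 with natural logarithms. Of all genes, 9.35% were that far apart for this pair, then 10.3% with 1 probe and 19.8% with natural logarithms. No paired analysis was possible because replicate numbers of lines and organs only name the arrays.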
